A study of Homo sapiens with 4 samples.

Results

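Amino acids enter and leave cells through several unrelated families of membrane carriers. The chromatin beside the genes of 7 such families, SLC1, SLC3, SLC6, SLC7, SLC36, SLC38 and SLC43, is described here in the melanoma line A375, which was established from a human tumour. Every region that the authors' deposited table names with a gene of these families was taken, apart from SLC7A11. That gave 304 distinct regions beside 49 gene symbols, of 91107 distinct regions beside 17301 symbols in all. One of the symbols, SLC7A6OS, is caught by its spelling and belongs to a gene on the opposite strand beside SLC7A6, so the transporters proper number 48.

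The mark measured was H3K27ac, acetylation of histone H3 found at active promoters and enhancers, by chromatin immunoprecipitation and sequencing. The vehicle group, exposed to the solvent isopropanol, has 2 libraries. The other group, also of 2, was exposed to 1 mM octanoate, which is a fatty acid of medium chain length. Both exposures lasted 48 hours in the same line, with no other agent or genetic change named. Nothing in the labels says whether the libraries of a group came from separate cultures. The table analysed holds 1 comparison and no value per library, so values per sample, depth and the spread between replicates are unknown.

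For each region the authors' deposited table gives a mean level in the authors' normalized units, a log2 fold change with its standard error (SE), and p-values. The numerator of the fold change is not named, so differences are written as positive or negative. In the authors' deposited table an adjusted value is given for 108 of the 304 regions (35.5%), against 40.0% of all regions. The other 196 lay at mean levels of at most 18.44, the level above which the authors' deposited table carries adjusted values. Regions with an adjusted p-value are called tested below, and those with one under 0.05 are called. The median log2 fold change of all 36436 tested regions of the authors' deposited table was 0.32, a ratio of 1.25, so a value is also given relative to that median where it matters. As a check on the cell label, regions over the start were listed for 4 of 8 melanocyte lineage genes in the authors' deposited table. Their mean levels were 774 at SOX10, 269 at PMEL, 98.4 at MITF and 55.2 at S100B. TYR, MLANA, DCT and TYRP1 had no region over the start. Of 6 genes of blood, epithelium, liver and vessels EPCAM alone had one in the authors' deposited table, at 50.5, close to the level of S100B.

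The families divide the work of amino acid exchange. SLC7 light chains pair with the SLC3 heavy chains and swap large neutral, cationic or dibasic amino acids across the membrane. SLC1 members take up glutamate or exchange alanine, serine, cysteine and glutamine, and SLC38 members import glutamine and other small neutral amino acids with sodium. SLC36 carriers move amino acids with protons, often at the lysosome. SLC6 holds carriers of glycine, proline and branched-chain amino acids beside those of GABA, taurine, creatine and monoamines, and SLC43 carriers let neutral amino acids pass down their gradient. Proliferating cells, melanoma included, are known to depend on the leucine carrier SLC7A5 with its partner SLC3A2 and on the glutamine carriers SLC1A5 and SLC38A2, and shortage of amino acids is known to raise several of these genes through ATF4.

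The promoter sequences of the genes on which the results turn are shown first. They are the 250 bases before a RefSeq transcription start (GRCh38.p14, the assembly of the hg38 build that the submitters' processing notes name), 5′ to 3′ on the strand of the gene. SLC1A1 is shown because its start region was called, and the other 5 genes because theirs had the highest mean levels. SLC3A2 and SLC1A5 are shown at 2 starts each, and further starts of these genes and of SLC38A1 are not shown. Capitals mark a match to a searched motif. No sequence was listed for SLC1A2 or SLC6A6.
SLC1A1 (chr9:4490218-4490467, plus strand): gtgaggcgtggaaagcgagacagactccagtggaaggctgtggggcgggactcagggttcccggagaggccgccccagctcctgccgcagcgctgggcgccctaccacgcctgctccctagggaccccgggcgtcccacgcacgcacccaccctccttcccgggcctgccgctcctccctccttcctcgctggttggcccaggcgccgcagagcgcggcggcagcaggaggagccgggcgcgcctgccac
SLC7A5 (chr16:87869508-87869757, minus strand): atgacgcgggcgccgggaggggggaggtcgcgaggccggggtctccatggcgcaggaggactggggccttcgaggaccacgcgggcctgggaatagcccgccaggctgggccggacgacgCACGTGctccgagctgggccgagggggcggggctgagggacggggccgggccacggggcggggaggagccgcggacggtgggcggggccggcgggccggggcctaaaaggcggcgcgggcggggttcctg
SLC3A2, start in the region at the start (chr11:62855859-62856108, plus strand): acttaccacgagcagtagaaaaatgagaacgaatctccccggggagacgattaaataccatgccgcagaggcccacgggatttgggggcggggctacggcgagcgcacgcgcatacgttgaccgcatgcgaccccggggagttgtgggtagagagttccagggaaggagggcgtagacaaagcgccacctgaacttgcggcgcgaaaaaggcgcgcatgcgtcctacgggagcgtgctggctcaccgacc
SLC3A2, start in the region away (chr11:62880646-62880895, plus strand): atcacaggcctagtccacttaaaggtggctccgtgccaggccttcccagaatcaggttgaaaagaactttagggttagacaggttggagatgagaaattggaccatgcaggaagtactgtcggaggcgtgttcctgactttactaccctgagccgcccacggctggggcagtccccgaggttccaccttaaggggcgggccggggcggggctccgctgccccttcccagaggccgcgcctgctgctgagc
SLC38A2 (chr12:46372774-46373023, minus strand): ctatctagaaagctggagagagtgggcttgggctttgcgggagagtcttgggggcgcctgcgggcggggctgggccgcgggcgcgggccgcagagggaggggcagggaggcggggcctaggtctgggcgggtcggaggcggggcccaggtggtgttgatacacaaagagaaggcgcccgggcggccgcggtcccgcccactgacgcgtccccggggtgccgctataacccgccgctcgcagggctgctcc
SLC1A5, outermost start (chr19:46788595-46788844, minus strand): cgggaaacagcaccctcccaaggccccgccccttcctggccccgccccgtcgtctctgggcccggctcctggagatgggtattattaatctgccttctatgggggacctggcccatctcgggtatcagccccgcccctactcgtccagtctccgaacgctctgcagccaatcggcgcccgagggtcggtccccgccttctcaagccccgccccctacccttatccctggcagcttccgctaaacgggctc
SLC1A5, inner start (chr19:46784815-46785064, minus strand): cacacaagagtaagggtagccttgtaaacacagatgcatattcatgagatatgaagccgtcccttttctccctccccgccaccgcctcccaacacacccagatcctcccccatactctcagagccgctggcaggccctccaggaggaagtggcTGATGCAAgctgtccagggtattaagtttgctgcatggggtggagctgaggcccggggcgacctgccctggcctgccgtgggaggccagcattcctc
SLC38A1 (chr12:46267988-46268237, minus strand): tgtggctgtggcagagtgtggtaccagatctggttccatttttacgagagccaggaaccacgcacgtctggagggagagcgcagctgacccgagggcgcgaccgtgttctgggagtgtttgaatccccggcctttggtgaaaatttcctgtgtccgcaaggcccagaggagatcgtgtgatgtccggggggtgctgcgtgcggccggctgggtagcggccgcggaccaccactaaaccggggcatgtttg

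All 8 windows lay wholly inside a listed H3K27ac region. Their GC content ran from 59.6% for the inner SLC1A5 start to 79.6% for SLC7A5, against a median of 58% over 35116 RefSeq windows of the same length. 5 motifs were searched on both strands in the 59 windows of the 38 member genes that the RefSeq table holds. The E-box CACGTG, marked in the SLC7A5 window, was in 8 of the 59 windows (13.6%) and in 6.34% of all windows. TGATGNAA, the C/EBP-ATF element of the amino acid response, was in 2 of 59 (3.39%, against 3.14% of all). One of these is the inner SLC1A5 start, where it lies 97 bases before the start, and the other belongs to SLC1A3. The AP-1 element TGANTCA was in 9 of 59 windows and 6.57% of all, TATAAA in 4 of 59 and 10.7% of all, and the cAMP response element TGACGTCA in 0 of 59 and 1.65% of all. Some matches lie in windows not shown: the E-box of SLC1A5, the AP-1 element of SLC3A2 and SLC38A1, and TATAAA of SLC38A1. A match is a string of letters in a window and was not tied to binding of any factor. Sequence outside the windows, introns included, was not searched, so an unmarked window does not show that a gene lacks the motif.

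2 of the 108 tested regions were called in the authors' deposited table, or 1.85%, against 1.67% of all tested regions. Both were positive: the region over the start of SLC1A1, the neuronal and epithelial glutamate and cysteine carrier, and a region just inside SLC6A6, the taurine carrier. Regions with an unadjusted p-value under 0.05 numbered 20 in the authors' deposited table (18.5%, against 18.4% of all tested regions), of which 19 were positive and 1 negative. They lay beside 11 genes. Over all members, 93 of 108 fold changes (86.1%) were positive in the authors' deposited table, against 87.3% of all tested regions. The median of the members was 0.36 (95% interval over regions 0.28 to 0.40) beside the 0.32 of the whole of the authors' deposited table, and 56 members lay above that overall median and 52 at or below it. With the SLC6 family left out the member median was 0.31. Limited to carriers of amino acids proper it was 0.30. Both lay inside the interval and below 0.32.

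**Figure D1:**
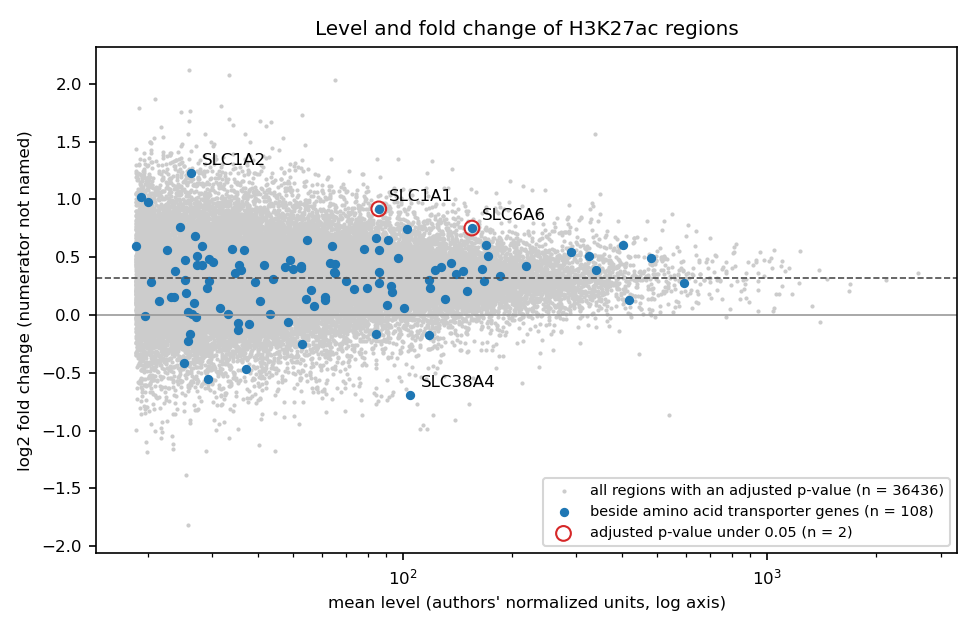
Mean level (log axis) against log2 fold change for all 36436 tested regions (grey) and the 108 beside amino acid transporter genes (blue). The dashed line is the overall median of 0.32, and circles mark the 2 called regions, at SLC1A1 and SLC6A6. SLC1A2 and SLC38A4, labelled too, missed the threshold.

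The SLC1A1 region (chromosome 9, 4489482 to 4492014 on hg38) had a log2 fold change of 0.92 with an SE of 0.25 in the authors' deposited table, a ratio of 1.89, at a mean level of 85.9. Its p-value in the authors' deposited table was 0.000260 and its adjusted p-value 0.0284. It holds the only RefSeq start of SLC1A1, at 4490468, whose upstream sequence heads the list above. The RefSeq span of GLIS3, a zinc finger transcription factor gene, ends at 4490465, so the region covers the outer ends of both genes. At starts in general, 86 of 9996 tested regions of the authors' deposited table were called, or 0.860%, and SLC1A1 was the 1 call among the 21 tested start regions here. Relative to the overall median the SLC1A1 value was 0.59, with an adjusted p-value of 0.664 recomputed from the authors' deposited table.

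The other 4 tested regions of SLC1A1 were positive as well, and 4 of all 5 lay above the overall median. In the authors' deposited table they were 0.76 ± 0.35 (SE) for a region 58652 bases before the start inside GLIS3, 0.47 ± 0.29 and 0.56 ± 0.23 for regions 9257 and 38560 bases into the gene, and 0.09 ± 0.23 for one 47291 bases in. The last had the highest mean level of the 5 (90.3 in the authors' deposited table), close to that of the called region.

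SLC6A6 imports taurine and was among the 5 genes with the most regions, 22 in all and 11 tested. Its called region (chromosome 3, 14408364 to 14416138) lies in the gene, 5789 bases beyond the start, and had 0.75 ± 0.22 (SE) at a mean level of 155 by the authors' deposited table (adjusted p-value 0.0402). The region over the start (14401948 to 14406825) had 0.51 ± 0.23 and one 26324 bases in had 0.61 ± 0.23 in the authors' deposited table, with adjusted p-values of 0.213 and 0.132. All 11 tested regions were positive by the authors' deposited table, from 0.13 to 0.75 with a median of 0.41, and 9 of them lay above the overall median. The 3 regions with an unadjusted p-value under 0.05 lay between the start and 26324 bases beyond it, and the tested region farthest into the gene, 68658 bases in, gave the 0.13. Relative to the overall median the called region was at 0.43, with a recomputed adjusted p-value of 0.859.

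**Figure D2:**
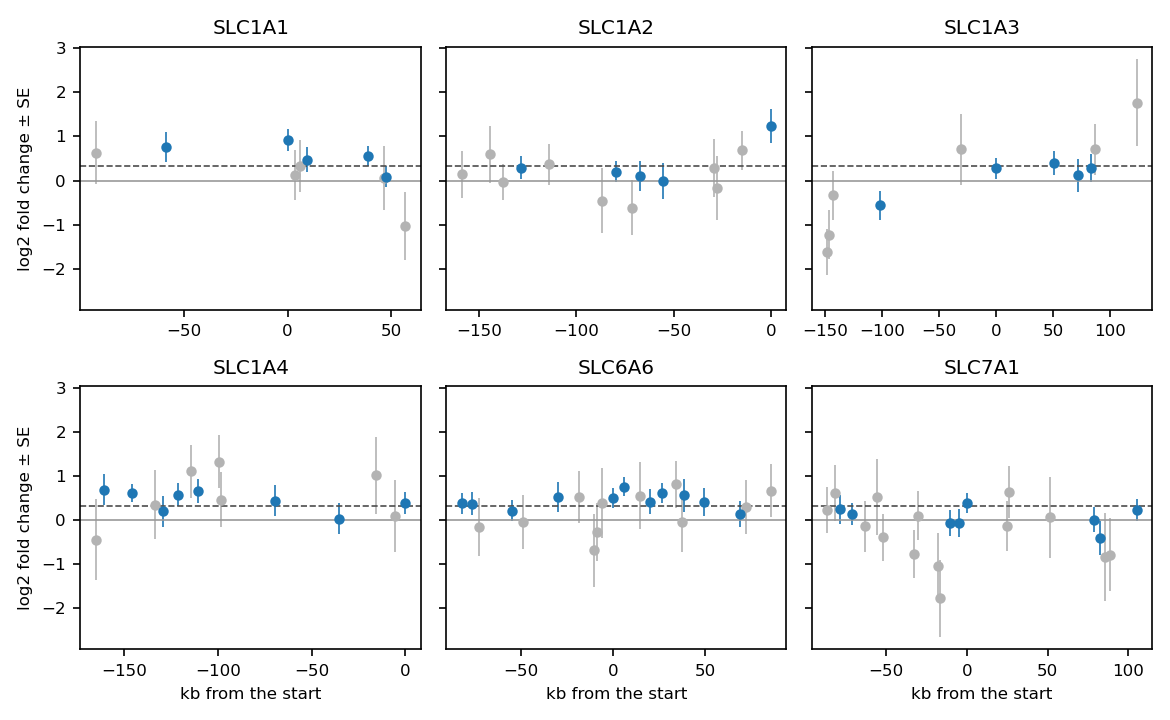
Log2 fold change ± SE of every region of 6 genes against the distance of its nearer edge from the gene's start (kb, positive toward higher coordinates). Blue points are tested, grey points are not; the dashed line is the overall median of 0.32. SLC1A1, SLC1A4 and SLC6A6 are positive in all tested regions, and SLC7A1 lies around 0. In SLC1A3, 4 of the 5 regions upstream are negative, 1 of them tested, and the 5 downstream are positive.

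Just outside the threshold lay SLC1A2, SLC38A4 and SLC1A4. SLC1A2, the chief glutamate carrier of astrocytes, had the largest tested fold change of all members, 1.23 ± 0.38 (SE) over its start (chromosome 11, 35418809 to 35420387), at a mean level of only 26.2 by the authors' deposited table (adjusted p-value 0.0616). Its 4 other tested regions, 55260 to 128492 bases away inside the gene, had -0.01, 0.11, 0.20 and 0.29 in the authors' deposited table, with SEs from 0.24 to 0.40. The start value of SLC1A2 lay above all 4 of these, and the difference was not tested. Likewise below the threshold in the authors' deposited table, a 14206-base region 145711 bases before the start of SLC1A4 (chromosome 2, 64828573 to 64842779) had 0.61 ± 0.20 at a mean level of 402 (adjusted p-value 0.0885).

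The glutamate carriers (SLC1A1, SLC1A2, SLC1A3 and SLC1A7 had regions) totalled 16 tested regions, 14 positive and 2 negative in the authors' deposited table, with a median of 0.29. SLC1A3, a glutamate carrier of glia, had 5 tested regions. Over its start (mean level 86.2) the value was 0.28 ± 0.24 (SE) in the authors' deposited table. Of the 5 regions upstream 4 were negative and 1 positive, and the 5 downstream all positive in the authors' deposited table. The farthest upstream, 148080 bases before the start, had -1.61 ± 0.52, and its neighbour at 146599 bases -1.22 ± 0.55, both at mean levels under the limit for an adjusted p-value by the authors' deposited table (10.4 and 8.96; unadjusted p-values 0.00190 and 0.0257). The one tested region upstream, at 101943 bases, had -0.56 ± 0.33 at a mean level of 29.3 by the authors' deposited table (adjusted p-value 0.334). SLC1A7, a retinal carrier, had 1 tested region at 0.38.

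The neutral exchangers SLC1A4 and SLC1A5 gave 11 tested regions, all positive in the authors' deposited table, with a median of 0.43 and 8 above the overall median. The highest level per kb of any start region here was at SLC1A5, the glutamine importer of many tumours. It had 44.7 units per kb, above 98.3% of the 10642 start regions of the authors' deposited table. Its log2 fold change of 0.54 carried an SE of 0.32 in the authors' deposited table, above that of 99.5% of the 943 regions of like level (within 1.25-fold of it), whose median SE was 0.21. Its 95% interval ran from -0.07 to 1.16. At SLC1A4, which exchanges alanine, serine and cysteine, the start had 0.38 ± 0.25 in the authors' deposited table, and 3 regions 110548 to 145711 bases before it had unadjusted p-values under 0.05 (0.57 to 0.65).

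The leucine carrier SLC7A5 and its heavy chain SLC3A2 had the 2 highest mean levels of all start regions of these genes. The SLC7A5 region spans 22482 bases (chromosome 16, 87850277 to 87872759), wider than 99.7% of start regions, with a mean level of 592 in the authors' deposited table. Per kb it had 26.3 units, near the median of 25.3 over all start regions, so the high total goes with its width. The log2 fold change of SLC7A5 was 0.28 ± 0.21 (SE; 95% interval -0.14 to 0.70) in the authors' deposited table. The other tested SLC7A5 region, 20066 bases into the gene, had -0.16 ± 0.25. Neither value was past the threshold, and the interval of the first spans both 0 and the overall median.

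SLC3A2 had 2 broad regions, each over RefSeq starts of its own. The one that the authors' deposited table places at the start (chromosome 11, 62850510 to 62863080, mean level 418) had 0.13 ± 0.20 (SE), or -0.19 relative to the overall median. It also holds the start of SNHG1, a host gene of small nucleolar RNAs, so its level is shared between the genes. The second (62879017 to 62888134, mean level 326) is listed 22916 bases away, but RefSeq places 2 further SLC3A2 starts in it, and it had 0.51 ± 0.22 and, by the authors' deposited table, 0.190 as its adjusted p-value. The 2 intervals, -0.26 to 0.53 and 0.09 to 0.93, overlapped, and the difference was not tested. SLC3A1, the heavy chain of the kidney, had 1 tested region at 0.48 ± 0.33 in the authors' deposited table.

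Among the other light chains, SLC7A6, which exchanges dibasic for neutral amino acids, had 0.45 ± 0.23 (SE) over its start by the authors' deposited table (mean level 136, adjusted p-value 0.274). SLC7A7, the related carrier of epithelia and macrophages, had a start region of only 8.62 mean level with no adjusted p-value, and a region 4156 bases upstream with 1.02 ± 0.40 at a mean level of 19.0 by the authors' deposited table (adjusted p-value 0.164). The light chain group had 5 tested regions, 4 positive and 1 negative, with a median of 0.28 in the authors' deposited table. SLC7A13 supplied a value of 0.08 from a region 52363 bases away in the authors' deposited table. SLC7A8 had a start region too low to be tested, and SLC7A9 none over its start.

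The cationic carriers gave the lowest median of the groups, 0.07 over 10 tested regions in the authors' deposited table, with 6 positive, 4 negative and 0 with an unadjusted p-value under 0.05. Most of them belong to SLC7A1, the widely expressed arginine and lysine carrier, with 22 regions of which 8 were tested. Over the SLC7A1 start (mean level 123) the value was 0.39 ± 0.22 (SE) in the authors' deposited table. The 7 other tested regions of SLC7A1 had values between -0.41 and 0.24 in the authors' deposited table, all below the overall median. SLC7A2, an inducible arginine carrier, had 0.43 ± 0.31 over its start at the lowest level per kb of all 27 start regions (10.9 units per kb) in the authors' deposited table. SLC7A14 had 1 tested region at -0.47 ± 0.31, 114468 bases downstream of its start inside the gene. Its 7 regions too low to be tested were of both signs, from -1.16 ± 0.47 to 0.63 ± 0.58 in the authors' deposited table.

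**Figure D3:**
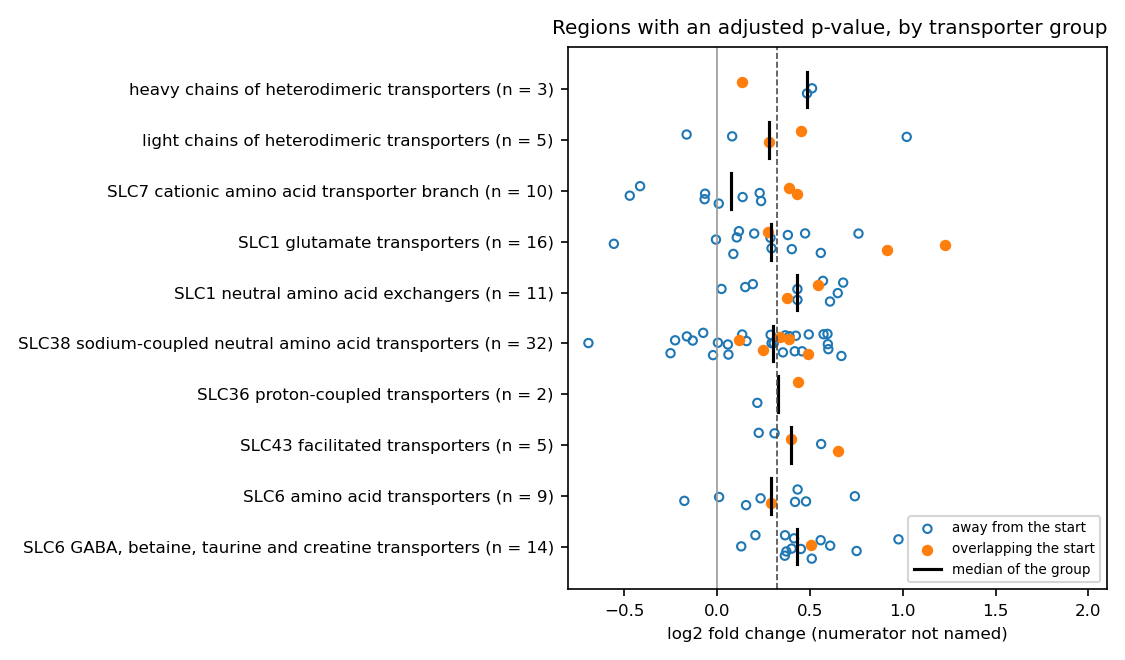
Log2 fold change of the tested regions in each transporter group; filled points overlap a gene start, open points do not, and black bars are group medians. The solid line is 0 and the dashed line the overall median of 0.32. Every start region is positive, and the negative values are all open points.

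The sodium-coupled SLC38 family had the most tested regions, 32 over 9 genes, of which 25 were positive and 7 negative in the authors' deposited table (median 0.30). 23 of them lie in 1 stretch of chromosome 12 that holds SLC38A1, SLC38A2 and SLC38A4, where 51 regions, tested or not, lay within a span of 803 kb. SLC38A2, the glutamine and alanine carrier that cells raise when starved of amino acids, had more regions than any other gene here, 26, of which 13 were tested. All 13 were positive by the authors' deposited table, from 0.06 to 0.67 with a median of 0.39, 8 of them above the overall median, and 3 had an unadjusted p-value under 0.05. The start region (46362751 to 46374102, mean level 339) had 0.39 ± 0.23 (SE) in the authors' deposited table. A region of 19528 bases, 172305 bases upstream of the start (46545172 to 46564700), had the highest mean level away from a start among the members, 479, with 0.49 ± 0.21 by the authors' deposited table (adjusted p-value 0.190). The largest value among the tested regions of SLC38A2 was 0.67 ± 0.25 at 56485 bases upstream by the authors' deposited table (adjusted p-value 0.139).

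SLC38A1, a glutamine importer next to SLC38A2, had 1 positive and 3 negative values over its 4 tested regions. Its start (46262699 to 46269768, mean level 185) had 0.34 ± 0.21 (SE) in the authors' deposited table, and the 3 others, all inside the gene, -0.02, -0.07 and -0.23, with SEs of 0.31 to 0.37. None of the 4 had an unadjusted p-value under 0.05, and the intervals of the 3 include the overall median.

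SLC38A4, an amino acid carrier best known from liver and placenta, had a start region of 9.17 mean level, too low to be tested. Its 3 tested regions downstream, next to those of SLC38A2, had 0.14, 0.42 and 0.60 in the authors' deposited table. The 3 tested regions on the far side, 111126 to 121786 bases upstream, had -0.13, -0.25 and -0.69. The last (46947783 to 46954976, mean level 105) had an SE of 0.22 and an adjusted p-value of 0.0752 by the authors' deposited table, and was the only negative one of the 20 regions with an unadjusted p-value under 0.05. Measured from the overall median it was at -1.02 with a recomputed adjusted p-value of 0.0124 from the authors' deposited table. It was then the only member called, where 45 of all 36436 tested regions (0.124%) were. Within the 50.3 kb that hold the 8 regions over 70 kb upstream of SLC38A4, 8 of 8 values were negative in the authors' deposited table, from -0.03 to -0.69, at mean levels of 3.32 to 105. Among all 91107 regions, 24004 values were negative. Of the 8 regions 3 were tested, and only the interval of the region at 46947783 excluded 0. The 70 kb limit was not set in advance. The region at 46947783 lies almost midway between SLC38A4 and AMIGO2, a cell adhesion gene whose start is 125 kb further on, so the assignment to SLC38A4 rests on a small difference in distance.

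**Figure D4:**
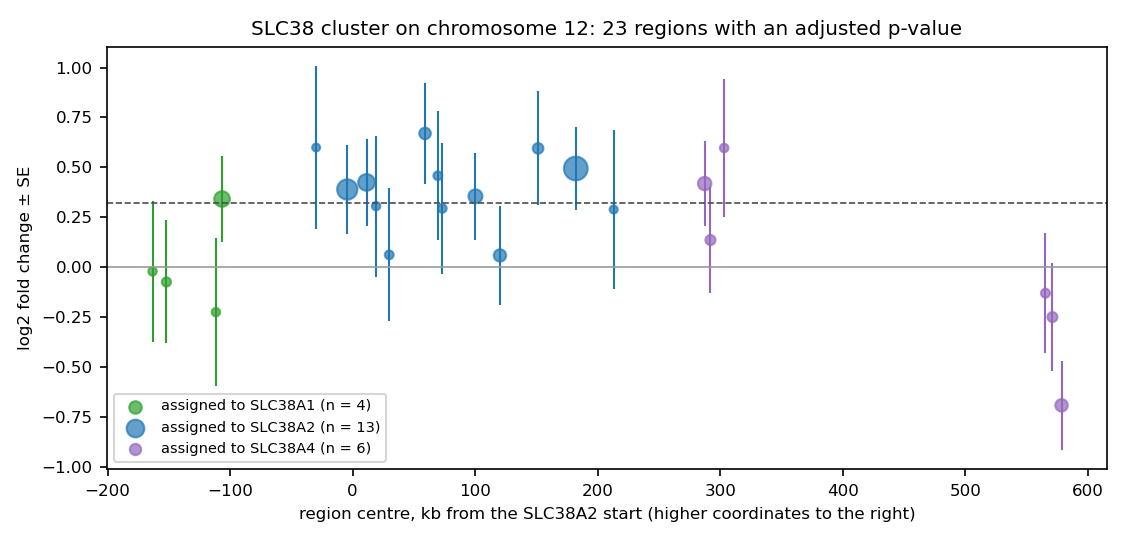
Log2 fold change ± SE of the 23 tested regions of the SLC38 cluster against the distance of the region's centre from the SLC38A2 start (kb); point area grows with mean level and colour gives the assigned gene. The 13 SLC38A2 regions are all above 0, and the 3 SLC38A4 regions on the far right are all below it.

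Elsewhere in the SLC38 family, the start regions of SLC38A10 (0.49 ± 0.26, SE), SLC38A6 (0.25 ± 0.24) and SLC38A7 (0.12 ± 0.34) were positive by the authors' deposited table, and none had an adjusted p-value under 0.2. The SLC38A6 region is shared with the start of TRMT5. SLC38A9, the lysosomal arginine carrier that signals to mTORC1, had 1 tested region, listed 18348 bases away but over 2 RefSeq starts of SLC38A9 itself, at 0.37 ± 0.29 in the authors' deposited table. SLC38A3 had 1 tested region, at -0.16 in the authors' deposited table, and SLC38A11 had 2, both positive, the higher at 0.39.

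The proton-coupled and facilitated carriers were few. SLC36A4 had 0.44 ± 0.27 (SE) over its start, and SLC36A1, the lysosomal carrier, 0.22 ± 0.27 at a region listed 8497 bases away that holds a RefSeq start of SLC36A1, in the authors' deposited table. SLC43A1, a carrier of leucine and other large neutral amino acids, had 0.65 ± 0.26 over its start (chromosome 11, 57513662 to 57516438) in the authors' deposited table, for an unadjusted p-value of 0.0134 (0.173 after adjustment). SLC43A2 had 2 tested regions, 0.31 and 0.56, in the authors' deposited table. SLC43A3, which carries purine bases and not amino acids, had 0.40 ± 0.24 over a start of 41.9 units per kb, the level next to that of SLC1A5. All 5 tested SLC43 regions were positive in the authors' deposited table, 3 of them above the overall median.

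The SLC6 carriers of amino acids had 9 tested regions in the authors' deposited table, 8 positive and 1 negative, with a median of 0.29. SLC6A9, the glycine carrier, had 0.74 ± 0.28 (SE) at chromosome 1, 44028903 to 44032005, and, by the authors' deposited table, 0.144 as its adjusted p-value. This region is listed 12347 bases away from the start, yet a RefSeq start of SLC6A9 lies in it. SLC6A15, a carrier of branched-chain amino acids and proline, had 21 regions spread up to 1084865 bases from its start, of which 4 were tested. Over the start (mean level 168) the value was 0.29 ± 0.24 in the authors' deposited table. SLC6A19, the neutral carrier of gut and kidney, had 1 tested region at -0.18 ± 0.23 in the authors' deposited table, and SLC6A20 had none.

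The carriers of GABA, betaine, taurine and creatine gave 14 tested regions, all positive in the authors' deposited table, of which 12 lay above the overall median (median 0.43). 11 of the 14 belong to SLC6A6, so the count follows 1 gene. SLC6A12, the betaine carrier, had 0.98 ± 0.41 (SE) at a region 31325 bases away with a mean level of 19.9 by the authors' deposited table (adjusted p-value 0.190). That region holds the start of IQSEC3-AS1, a noncoding RNA. The creatine carrier SLC6A8 had 0.45 ± 0.30 at a region 382 bases from its start in the authors' deposited table. Of the monoamine carriers, SLC6A2 and SLC6A4 had regions, and none was tested.

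Of the 27 regions over a start, 21 were tested, each for a different gene (SLC7A6OS among them), and all 27 had positive values in the authors' deposited table, from 0.06 at SLC38A4 to 1.23 at SLC1A2. Their median over the 21 was 0.39 (95% interval over regions 0.29 to 0.49), beside 0.35 for all 9996 tested start regions of the authors' deposited table (98.1% positive). The 87 tested regions away from a start had a median of 0.31 with 72 positive and 15 negative, beside 0.31 and 83.2% positive over all regions away in the authors' deposited table. All 15 negative values thus lay away from starts. After the overall median was subtracted, 14 of the 21 start values were above 0 and 7 below or at it. Of all 9996 tested start regions of the authors' deposited table, 5620 were above it. The order of level per kb ran from SLC1A5 through SLC43A3, SLC6A6, SLC6A15 and SLC1A1 (33.9 units per kb) down to SLC7A8 and SLC7A2. Neighbours from SLC6A15 to SLC3A2 in that order lay between 33.3 and 34.1 units per kb, and no replicate spread was at hand to tell them apart.

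**Figure D5:**
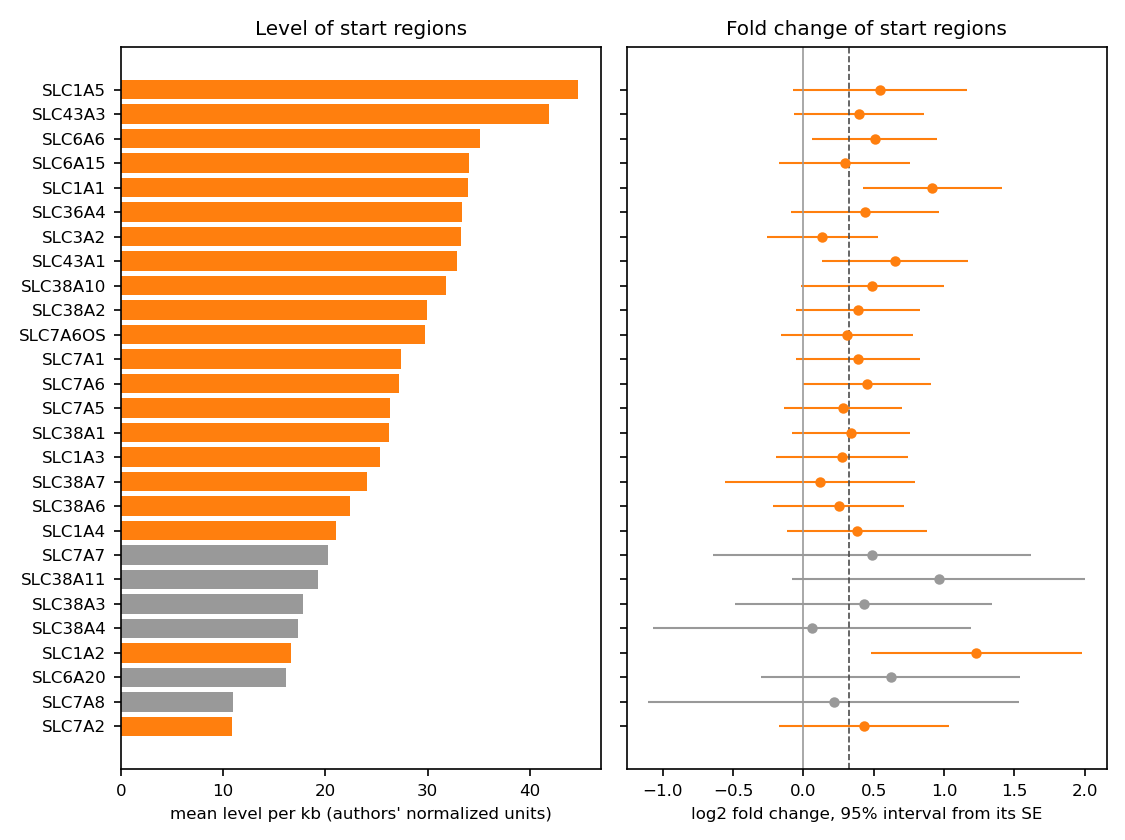
The 27 start regions in order of mean level per kb (left, bars) with their log2 fold change and 95% interval from the SE (right). Orange is tested, grey is not; the solid line is 0 and the dashed line the overall median of 0.32. The intervals of SLC1A1, SLC1A2, SLC6A6 and SLC43A1 exclude 0, and those of SLC1A1 and SLC1A2 exclude the overall median too.

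Position in the genome was read from RefSeq on the same build. Of the 87 tested regions away from a listed start, 36 overlapped the gene they were assigned to and 51 did not. Of the 51, 3 lay in another protein-coding gene and 48 in none. 4 of the 87 held a RefSeq start of their own gene, those of SLC3A2, SLC6A9, SLC38A9 and SLC36A1 named above, with values from 0.22 to 0.74 in the authors' deposited table. The assignment to the nearest gene does not show that a region regulates it. 5 member regions were wider than 10 kb (1.64%, against 1.05% of all regions in the authors' deposited table): those at the starts of SLC7A5, SLC3A2 and SLC38A2 and the distal ones of SLC38A2 and SLC1A4. Their values ran from 0.13 to 0.61, beside a median of 0.32 for all regions of that width in the authors' deposited table.

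The 196 regions without an adjusted p-value had a median log2 fold change of 0.27, with 129 positive and 67 negative, beside 0.21 and 64.6% positive for all such regions of the authors' deposited table. Their SEs ran from 0.39 to 1.22. 9 of them had an unadjusted p-value under 0.05 in the authors' deposited table, 5 positive and 4 negative, or 4.59%, against 2.70% of all such regions. The largest was 1.96 ± 0.65 (SE) at a region of 567 bases inside SLC43A1, 21516 bases from its start, with a mean level of 7.08 in the authors' deposited table. The lowest was -1.78 ± 0.88 at a region of 229 bases inside SLC7A1, 16730 bases from its start, with a mean level of 3.59. 12 of the 49 symbols had no tested region, among them the carriers of serotonin (SLC6A4) and noradrenaline (SLC6A2). No line named SLC1A6, SLC36A2, SLC38A5, SLC6A3, SLC6A13, SLC6A14, SLC6A18, SLC7A3, SLC7A4 or SLC7A10.

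Genes that act with these carriers were read in the same way. Amino acid levels at the lysosome are sensed by the RAG GTPases and their regulators, which govern mTORC1, and 35 genes of that machinery had 69 tested regions in the authors' deposited table with a median of 0.33, 61 of them positive. 2 of the 69 were called (2.90%, against 1.67% of all tested regions), both positive and both assigned to C12orf66 (KICS2), a subunit of the KICSTOR complex. They had 0.84 ± 0.20 (SE) at 31013 bases from the start and 0.86 ± 0.26 at 48477 bases in the authors' deposited table, with adjusted p-values of 0.00670 and 0.0496. 13 genes of enzymes that handle glutamine and branched-chain amino acids had 36 tested regions in the authors' deposited table, 31 of them positive, with a median of 0.32. ASNS, asparagine synthetase and a classical target of the amino acid response, had 0.76 ± 0.27 over its start and, by the authors' deposited table, 0.111 as its adjusted p-value. Carriers of amino acids in other families, 10 genes with 12 tested regions, had a median of 0.40 and 0 calls by the authors' DESeq2 adjusted p-values in the authors' deposited table, where 1.67% of all tested regions were called. Unadjusted p-values under 0.05 numbered 4 of these 12 (33.3%, against 18.4% of all tested regions), 3 positive and 1 negative, the last at SLC15A3 with -0.75 ± 0.35 (SE) in the authors' deposited table. Measured from the overall median, 0 of the regions of these 3 lists were called.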

How the data were processed

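H3K27ac was profiled in A375 cells, with 2 isopropanol and 2 octanoate libraries grouped by the treatment in the labels. Per the submitters' processing notes, the tools were Trim Galore, cutadapt, FastQC, Bowtie2, Picard, MACS2, featureCounts, DESeq2 and bedtools 2.29.1, on build hg38; their settings are not given in the sources used here. The 1 table analysed is the authors' own comparison. Its mean level is a normalized signal, its fold change and SE are on the log2 scale, its statistic is a score, and its p-value columns are raw and adjusted, per the file headers. The value 1 in the adjusted column of the deposited table, given for every region of low level, was read as not computed. Its distance column, whose header names neither a unit nor a reference point, was read as bases to the assigned gene's start, and 0 as overlap.

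Lines repeating a region for another gene were merged (95312 lines, 91107 regions). No test across libraries was possible: the table holds no value per library, 0 columns of single libraries were left out, and depth is unknown. Calls are the authors' adjusted p-values under 0.05, adjusted over the whole table. The members and lists were chosen with earlier results of these data known. Relative values subtract the median log2 fold change of the tested regions. Two-sided normal p-values then used the authors' SE with Benjamini-Hochberg adjustment over the same regions. The procedure was run on values simulated as normal with those SEs, with planted changes larger than any tested member value. That run took the SEs as right, so it cannot show how reliable the recomputed p-values are. Intervals of a region are the value ± the normal 95% limit of its SE, and intervals of a median are over regions, which are not replicates. Named were all calls, the 5 largest and 5 smallest tested values, the 3 start regions of highest level per group, the 5 genes with most regions and the values next to the threshold. Other members are given in ranges and counts, or by value where they complete a gene or group, and those were chosen after their values were seen. All 49 symbols matched the RefSeq gene table and 38 the promoter table. A call in the list of enzymes is not reported here. Alternatives were other thresholds, adjustments, centring, level filters, 1 region per gene and families left out. Python 3.11.15, pandas 2.3.3, numpy 2.4.6 and scipy 1.17.1 were used.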

Additional observations from a re-analysis of the deposited data

How the results depend on the processing

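Of the 2 called regions, at SLC1A1 and SLC6A6, 0 remained at an adjusted p-value under 0.01, 0 when the change also had to reach 1 on the log2 scale in either direction and 0 after adjustment over all distinct regions. With a mean level of at least 100, 1 was left, by construction SLC6A6. Centring on the median of tested regions or of all regions gave 1 call each, the SLC38A4 region, with neither SLC1A1 nor SLC6A6 among them, and the cause was not tested. For the members the median stayed within its interval over regions in every setting run, from 0.30 to 0.39, and ran from 0.31 to 0.38 with each family left out. Centring was not among the settings run for the median, which it would lower by the value subtracted. Leaving out the SLC38 cluster on chromosome 12, chosen after seeing the data, gave 0.37. The share of positive regions, 86.1%, was 73.0% over all member regions, 92.6% at a mean level of at least 100 and 51.9% after centring on the median of tested regions. After that centring, of 29 regions examined singly, 4 changed sign: the start regions of SLC1A3 (-0.047), SLC3A2 (-0.19), SLC6A15 (-0.031) and SLC7A5 (-0.043). After centring on the median of all regions 2 did, SLC1A3 (-0.0030) and SLC3A2 (-0.15). These signs follow from the subtraction.

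No paired analysis was possible because values of single libraries were not analysed here. Leaving out each library was not run for the same reason. Whether the common positive shift is a difference in scaling or in acetylation cannot be told apart from this table.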
